A study of Mus musculus with 3 samples.

Results

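Chromatin immunoprecipitation followed by sequencing (ChIP-seq) placed 7387 peaks of H3K79Hcy, histone H3 carrying homocysteine on lysine 79, in the genome of NE4C mouse neural stem cells, and 202 of them (2.73%) held more than 5 times the reads expected from the background of the library. These 202 peaks of very high fold are described here by position, by sequence and by the values of 2 further antibodies at the same places. The fold of a peak is its reads divided by the background of 1.592 reads per window of 200 bp, times the number of windows in the peak. The peaks were chosen by this fold, that is by their own H3K79Hcy reads and length, so it is given below only as a description. Each antibody was represented by 1 library: H3K79Hcy, KHcy, which recognises homocysteinylated lysine in general, and H3K4me3. NE4C is an established line, grown on poly-L-lysine, and its labels name no treatment. With 1 library per antibody no difference between antibodies could be tested, and all intervals are 95% intervals that cover counting error only. The identity of the cells could not be checked from peak lists.

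Homocysteine thiolactone, a reactive product of homocysteine, attaches to the side chain of lysine, and histones are among the proteins it modifies. H3K4me3 is known as a mark of active promoters. Mouse chromosomes have their centromere close to 1 end, where long arrays of satellite DNA lie, and most of these arrays are missing from genome assemblies. Copies of satellite DNA, of ribosomal RNA genes and of recently duplicated gene families are therefore fewer in an assembly than in the cell.

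The 5 stretches below are shown so that the sequence under the peaks of largest fold and in the largest clusters can be compared. The first 3 come from the peak of largest fold on the chromosomes with the largest folds, the next from the most regular repeat of the largest cluster, and the last from the second largest cluster. The last was chosen after the values had been seen. Each is the part of its peak, up to 300 bases outside untranslated regions, in which words of 31 bases had the most copies. Positions are in mm9 and the forward strand is shown. Capitals mark bases inside a word of 31 bases that the genome holds in more than 1 copy.
chr2:98502331-98502630: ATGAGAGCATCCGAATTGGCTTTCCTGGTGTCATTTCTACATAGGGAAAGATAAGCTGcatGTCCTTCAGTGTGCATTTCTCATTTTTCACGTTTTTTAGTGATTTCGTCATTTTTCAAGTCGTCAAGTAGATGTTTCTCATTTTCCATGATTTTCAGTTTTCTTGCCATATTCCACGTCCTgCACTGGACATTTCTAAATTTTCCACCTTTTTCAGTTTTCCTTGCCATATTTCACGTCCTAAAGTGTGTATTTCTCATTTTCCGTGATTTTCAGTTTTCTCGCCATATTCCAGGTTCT
chr9:35112829-35113128: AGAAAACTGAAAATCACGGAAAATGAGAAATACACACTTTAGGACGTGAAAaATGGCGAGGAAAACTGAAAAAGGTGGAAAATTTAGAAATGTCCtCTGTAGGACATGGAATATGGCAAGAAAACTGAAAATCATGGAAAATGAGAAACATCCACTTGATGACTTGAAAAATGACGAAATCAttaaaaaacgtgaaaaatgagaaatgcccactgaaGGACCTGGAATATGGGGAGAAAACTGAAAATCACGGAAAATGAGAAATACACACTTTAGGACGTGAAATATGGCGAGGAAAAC
chr6:103599001-103599300: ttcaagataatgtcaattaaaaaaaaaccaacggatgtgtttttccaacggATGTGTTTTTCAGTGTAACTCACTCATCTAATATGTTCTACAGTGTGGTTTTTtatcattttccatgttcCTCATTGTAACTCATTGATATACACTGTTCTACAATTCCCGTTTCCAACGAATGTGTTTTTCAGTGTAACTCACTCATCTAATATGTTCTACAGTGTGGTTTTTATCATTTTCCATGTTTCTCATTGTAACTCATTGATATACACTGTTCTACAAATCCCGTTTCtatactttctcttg
chr9:3032465-3032764: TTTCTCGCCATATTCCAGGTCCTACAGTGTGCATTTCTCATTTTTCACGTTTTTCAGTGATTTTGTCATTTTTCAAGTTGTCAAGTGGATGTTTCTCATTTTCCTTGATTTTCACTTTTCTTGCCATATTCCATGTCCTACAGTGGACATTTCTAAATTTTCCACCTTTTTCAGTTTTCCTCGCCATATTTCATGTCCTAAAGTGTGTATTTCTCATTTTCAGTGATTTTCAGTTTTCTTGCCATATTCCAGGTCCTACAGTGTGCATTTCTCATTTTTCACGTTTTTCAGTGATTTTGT
chr5:14972906-14973205: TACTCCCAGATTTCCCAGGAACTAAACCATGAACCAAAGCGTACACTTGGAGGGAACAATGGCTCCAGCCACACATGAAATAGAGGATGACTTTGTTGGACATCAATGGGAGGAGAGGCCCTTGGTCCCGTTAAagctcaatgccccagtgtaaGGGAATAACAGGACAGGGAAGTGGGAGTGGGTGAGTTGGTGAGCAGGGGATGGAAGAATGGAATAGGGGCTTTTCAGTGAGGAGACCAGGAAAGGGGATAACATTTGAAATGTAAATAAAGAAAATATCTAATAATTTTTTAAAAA
Of the 280 words of 21 bases in the chromosome 9 cluster stretch (chr9:3032465-3032764), 53 were also in the chromosome 2 stretch and 58 in chr9:35112829-35113128, counting both strands. The chromosome 6 stretch and the chromosome 5 stretch shared 0 words of 21 bases with any of the other stretches. The chromosome 2 stretch reached into an exon of Gm10801, a predicted gene, and the chromosome 9 cluster stretch lay in Gm10106, another predicted gene.

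The peaks of very high fold were short and held few reads for the most part, but a small number held very many. Their median length was 400 bp, against 1200 bp over all H3K79Hcy peaks, and 110 (54.5%) were at most 400 bp long. The 229 peaks of fold 4 to 5 were as short, with a median of 400 bp and 55.9% at most 400 bp long. Fold divides reads by length, so the length of these peaks follows in part from the way they were chosen. Reads per peak ranged from 12 to 4322 with a median of 27, and 72 peaks held under 20 reads while 53 held at least 100. Together they held 27920 reads, 13.3% of all reads in H3K79Hcy peaks, on 3.46% of the peak length. Their fold had a median of 7.30 and reached 83.5, with 47 peaks over 10-fold and 14 over 20-fold. At the other end, 78 lay under 6-fold and 31 shared the smallest fold of 5.03. The exact Poisson interval of the fold lay wholly above 5 in 88 of the 202.

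The limit of 5 cut through a continuous range of values. Just inside it were chr1:12595001-12595400 and chr10:15944401-15944800, with 16 reads each, and chr1:173455001-173460800 with 232 reads, all at 5.03-fold. Just outside it were chr5:14883401-14887200 at 4.96-fold, chr4:145163801-145165200 at 4.94-fold and chr5:14907201-14908200 at 4.90-fold. The pair on chromosome 5 lay in the region of duplicated genes described below.

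The reads behind these values differed among libraries. The lists held 209335 reads in peaks for H3K79Hcy, 276864 in 7300 peaks for KHcy and 787308 in 19339 peaks for H3K4me3, and the backgrounds were 1.592, 1.486 and 1.381 reads per window. Peaks over 5-fold made up 1.78% of the KHcy list and 1.39% of the H3K4me3 list. Total reads per library were not used here.

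Repeated sequence was present in most of the 202 peaks. At least 10% of the 31-base words occurred in more than 1 copy in the genome in 155 peaks (76.7%, 95% Wilson interval 70.4 to 82.0%), and over all H3K79Hcy peaks this share was 17%. Among the 229 peaks of fold 4 to 5 it was 37.1%, with an interval of 31.1 to 43.5%. At least 50% of words were repeated in 85 of the 202 (42.1%), against 2.27% of the remaining peaks. The median peak of very high fold had 38.2% of its words repeated, and the median of the remaining peaks was 0.649%. A word with more than 1000 copies lay in 55 of the 202 (27.2%, interval 21.6 to 33.7%), a share close to the 22.5% of all H3K79Hcy peaks. In contrast, 28 peaks (13.9%) held no repeated word, and 21 of these 28 lay under 6-fold. Whether copies that are missing from the assembly bear on the folds was not tested.

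**Figure D1:**
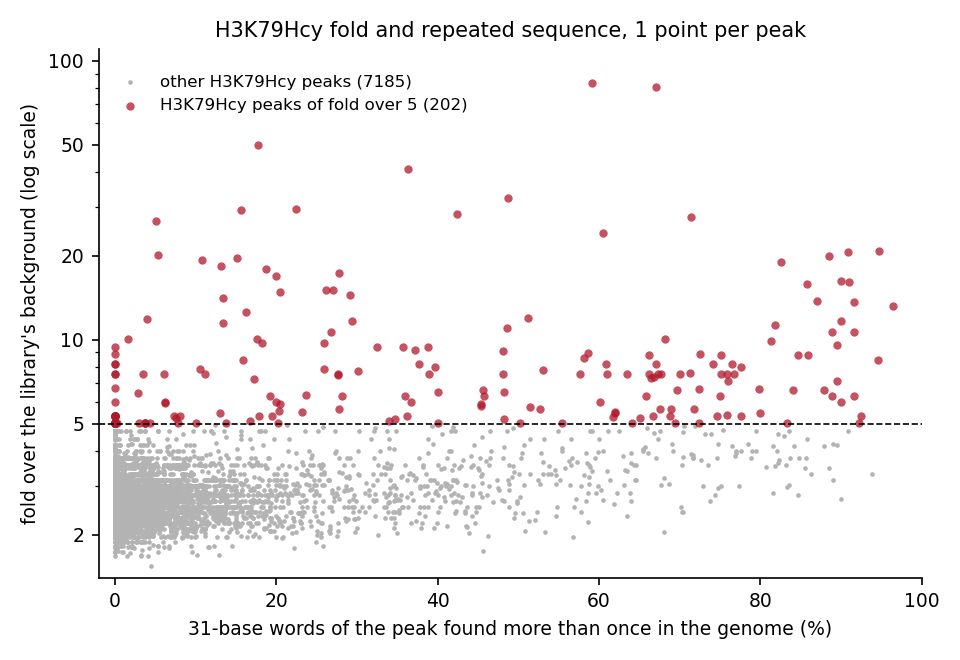
Fold of each H3K79Hcy peak over the background of its library (vertical axis, log scale) against the percentage of its 31-base words found in more than 1 copy in the genome (horizontal axis), with the 202 peaks of fold over 5 in red and the other 7185 in grey. The dashed line marks 5-fold, and 43 of the 47 peaks over 10-fold lie at or beyond 10% repeated words.

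The largest folds stood side by side on chromosome 2. At chr2:98502201-98503200, over an exon of the predicted gene Gm10801, H3K79Hcy had 665 reads, or 133 per 200 bp, which is 83.5-fold with an exact Poisson interval of 77.3 to 90.1. KHcy had 110 reads per 200 bp there (73.8-fold) and H3K4me3 had 131 (95.1-fold). The neighbouring peak chr2:98506201-98507600, over an exon of the predicted gene Gm10800, held 896 reads at 80.4-fold, with 86.5-fold for KHcy and 93.9-fold for H3K4me3. All 3 antibodies were thus near their own largest values in the same stretch. A further pair of peaks completed the group, chr2:98503801-98504400 at 40.8-fold over an exon of Gm10801 and chr2:98505001-98505600 at 32.2-fold outside protein-coding genes. No other H3K79Hcy peak lay within the 5.4 kb that these 4 span.

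The next largest folds were scattered over 5 chromosomes. Outside protein-coding genes, chr9:35112201-35113200 held 398 reads at 50-fold, and its values were 66.5-fold for KHcy and 92.2-fold for H3K4me3. The peak chr6:103599001-103599600, which overlapped an exon of Chl1, a cell adhesion molecule of neurons, had 141 reads at 29.5-fold, with 32.1-fold for KHcy and 51.8-fold for H3K4me3. Chl1 was overlapped by 6 H3K79Hcy peaks in all, of which 1 was of very high fold. On the X chromosome, chrX:139917401-139917800 held 93 reads at 29.2-fold, against 29.9-fold for KHcy and 36.2-fold for H3K4me3. The peak chr15:74915801-74917600 held 406 reads at 28.3-fold, with 27.4-fold for KHcy and 49.2-fold for H3K4me3, and 1 of its words had 218009 copies in the genome. Both of these peaks were outside protein-coding genes. In the chromosome 9 cluster, chr9:2999801-3001600 over Gm10722 held 394 reads at 27.5-fold, with 29.1-fold for KHcy and 34.3-fold for H3K4me3. The tenth largest fold differed in sequence, since 5.14% of its words were repeated: chr4:70039001-70039400, in an intron of the centrosomal protein gene Cdk5rap2, held 85 reads at 26.7-fold. KHcy was at 27.3-fold and H3K4me3 at 23.9-fold in this peak. In each of the 10 peaks of largest fold, peaks of both other antibodies were present at 23.9-fold or more.

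Shared words linked peaks of very high fold on different chromosomes. Peaks were linked when they shared at least 20 repeated words of 31 bases, leaving out words with more than 1000 copies, a grouping that was chosen after the values had been seen and that joins peaks in chains, so that 2 peaks of a group need not share a word. This gave 18 groups with 83 of the 202 peaks, and 9 groups with 53 peaks reached over more than 1 chromosome. Only the 202 peaks were grouped in this way, so no share over all H3K79Hcy peaks stands beside these counts. The largest group held 31 peaks at 11 places on 8 chromosomes (2, 4, 6, 9, 12, 13, 16 and X), and its folds ran from 6.49 to 83.5. All 18 peaks of the chromosome 9 cluster were in it, and the 13 peaks elsewhere included the 7 of largest fold. The 13 had a median of 29.2-fold for H3K79Hcy, 29.9-fold for KHcy and 36.2-fold for H3K4me3. Outside this group the median of the 171 remaining peaks was 6.28-fold. Words of the chromosome 9 cluster itself were counted separately and occurred in 13 of the 184 peaks of very high fold that lay elsewhere (7.07%), on 7 chromosomes, and in 1 of the 7185 remaining peaks. Of these 13, 9 were in the largest group and 4 were not. Of the 7 peaks of largest fold, 4 held a word of the cluster and 3 did not: chr2:98505001-98505600, chr6:103599001-103599600 and chrX:139917401-139917800. The highest content was 48.6% of the words, in chr12:3109801-3110200, which had 24.2-fold for H3K79Hcy, 25.2-fold for KHcy and 30.1-fold for H3K4me3.

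The chromosome 9 cluster lay at the first base of assembled sequence. From chr9:2999801 to chr9:3038400, a span of 38.6 kb, all 18 H3K79Hcy peaks were of very high fold, from 6.60 to 27.5 with a median of 13.4, and they held 2537 reads. In each of these peaks 71.4 to 96.5% of the words were repeated. KHcy peaks overlapped 16 of the 18, at a median of 15.4-fold, and H3K4me3 peaks overlapped all 18, at a median of 16.4-fold. The peaks overlapped 11 protein-coding genes, and each bears only a number after Gm, the symbol of predicted mouse genes. Gm10718, Gm10719, Gm10720, Gm10722, Gm11167 and Gm17535 were each overlapped by 2 of the peaks.

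A repeat unit of 234 bp ran through this cluster. In peaks of at least 600 bp, every base was compared with the base a fixed distance further on, for distances of 2 to 600 bp, and a peak counted as a tandem repeat where 60% of bases or more were the same. This held for 15 of 92 peaks of very high fold (16.3%) and for 16 of 7057 other peaks (0.227%). In 10 of the 15 the best distance was 234 bp, which was found in 0 of the other peaks. The most regular was chr9:3031801-3032800, at 94.3% of bases, and it held 159 reads at 19.97-fold. The major satellite, the main repeat of the DNA around mouse centromeres, is known for a unit of this length. No repeat annotation was used here, so repeats are not named from one.

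The most reads lay at the start of chromosome 11, over Sfi1, which encodes a centrin-binding protein of centrosomes. Sfi1 (chr11:3031853-3093466, minus strand) was overlapped by 4 peaks with 10100 reads together, of the 27920 reads in all 202 peaks. The broadest, chr11:3052001-3080200, held 4322 reads at 19.3-fold, and chr11:3080601-3100200, which also covered exons of the GTP-binding protein gene Drg1, held 2872 reads at 18.4-fold. They were followed by chr11:3026801-3049000 with 2659 reads at 15.0-fold and by chr11:3049401-3051600 with 247 reads at 14.1-fold. KHcy lay at 14.4- to 18.6-fold and H3K4me3 at 28.7- to 35.1-fold over these 4 peaks. In each of the other lists 1 peak of 51200 bp ran across 3 of the 4, so these values are not independent. Of the words in the 4 peaks 10.8 to 26.1% were repeated, less than in the chromosome 9 cluster. A further 4 peaks of lower fold, from 6.28 to 9.69, lay between Sfi1 and the first assembled base, so that 8 of the 9 H3K79Hcy peaks in this 100.2 kb were of very high fold.

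A region of duplicated genes on chromosome 5 held the greatest number of peaks. Chained over gaps of at most 100 kb, 32 peaks of very high fold lay within chr5:14871001-15218200, among 79 H3K79Hcy peaks in all. They overlapped Speer4c, Speer4d and Speer4e, members of a family expressed in the testis, and the predicted genes Gm10354 and Gm17019. Their folds, from 5.03 to 8.95 with a median of 6.28, were lower than those on chromosomes 2, 9 and 11. A median of 68.8% of their words was repeated. KHcy peaks overlapped 25 at a median of 5.55-fold, and H3K4me3 peaks overlapped 31 at a median of 7.34-fold. The densest piece, chr5:14947201-15007600, held 11 of the 32, and its largest fold was 8.58, with 123 reads, in chr5:14972601-14974400 over an exon of Gm10354. At that peak KHcy was at 8.75-fold and H3K4me3 at 12.2-fold.

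Smaller groups stood on chromosomes 8, 4 and 10. Within chr8:19707201-20031600, 13 of 33 peaks were of very high fold, up to 9.92, and the 13 overlapped 0 protein-coding genes. Within chr4:145021401-145155400, 6 of 17 peaks were, up to 7.45, with a pair of them in introns of the predicted gene Gm13242. Within chr10:57686601-57702400, 4 of 6 peaks were, up to 8.17, over a repeated block that holds Dux, a homeobox transcription factor gene of the early embryo. All 4 on chromosome 10 were overlapped by H3K4me3 peaks, at 5.19- to 11.6-fold, and 2 of them by KHcy peaks.

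**Figure D2:**
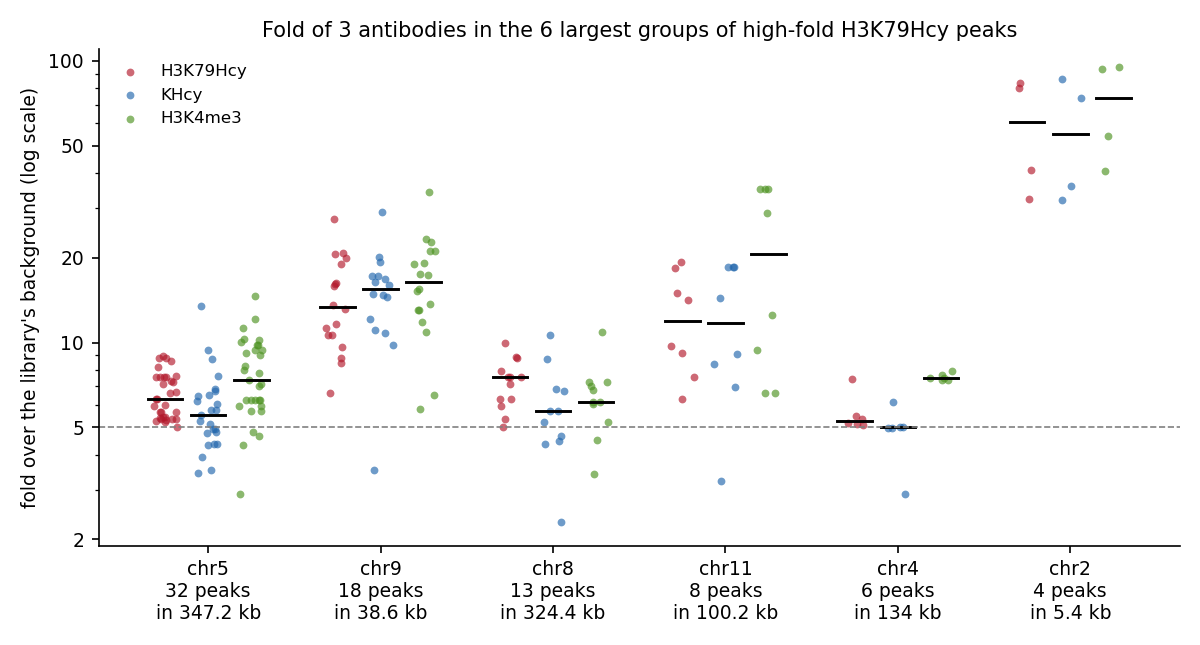
Fold over the background of each library (log scale) at the peaks of very high fold in the 6 largest groups, formed over gaps of at most 100 kb, with H3K79Hcy in red, KHcy in blue and H3K4me3 in green. Each point is 1 H3K79Hcy peak or the other antibody's peaks overlapping it, black lines are medians, the dashed line is 5-fold, and the chromosome 2 group lies highest for all 3 antibodies (32.1 to 95.1).

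The mitochondrial genome carried 2 peaks of very high fold and no other H3K79Hcy peak. The first, chrM:1-6600, held 777 reads at 14.8-fold, and the second, chrM:11001-16200, held 745 reads at 18-fold and covered mt-Nd5, mt-Nd6 and mt-Cytb, genes of the respiratory chain, and the end of mt-Nd4. KHcy had peaks at nearly the same positions, chrM:1-6600 with 744 reads at 15.2-fold and chrM:10801-16200 with 693 reads at 17.3-fold. The H3K4me3 list held no mitochondrial peak. Mitochondrial DNA carries no histones, and its reads were not set against input here. Between the H3K79Hcy peaks, from chrM:6601 to chrM:11000, 98.8% of 31-base words had a further copy in the genome, against 20.5% and 18.8% in the peaks.

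Nearness to chromosome ends came mainly from the centromere side. Of the 202 peaks, 44 lay within 5 Mb of an end of the assembled chromosome (21.8%, interval 16.6 to 28.0%). Over all H3K79Hcy peaks the share was 6.44%, and such stretches are 7.58% of the length of the nuclear chromosomes that carry H3K79Hcy peaks. That length includes the bases missing from the assembly at each start, where no peak can lie. On nuclear chromosomes 33 of the 44 lay at the start and 9 at the far end, and the other 2 were the mitochondrial peaks. The assembly has no sequence before position 3000001 of any nuclear chromosome that carries an H3K79Hcy peak. In the first 500 kb after that position were 33 peaks of very high fold on 7 chromosomes, 47.1% of the 70 H3K79Hcy peaks there, and they held 13497 reads. By chromosome, 18 lay on chromosome 9, 8 on 11, 2 each on 17 and 18, and 1 each on 6, 12 and 13. Hence 26 of the 33 came from chromosomes 9 and 11. All 33 were overlapped by H3K4me3 peaks and 30 by KHcy peaks. In the last 500 kb of nuclear chromosomes the count was 7 of 88 peaks (7.95%), on 4 chromosomes. Gaps in the assembly were also near: 59 of the 202 (29.2%) lay within 50 kb of a gap of at least 1 kb, against 1.38% of the remaining peaks. The missing sequence before position 3000001 counts as such a gap. Peaks at chromosome starts, among them all 18 of the chromosome 9 cluster, are thus in both counts, and the 2 traits are not independent.

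Peaks of very high fold lay close to each other. With gaps of at most 10 kb, 99 of the 202 (49.0%, interval 42.2 to 55.9%) had another of them nearby and formed 27 clusters, while 103 stood alone. Over all H3K79Hcy peaks, which are far more numerous, 29.6% had another H3K79Hcy peak within 10 kb. Within 100 kb the order was the opposite, 54.5% against 75.7%. The largest clusters were those of chromosome 9 with 18 peaks and of chromosome 5 with 11.

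The share of peaks with very high fold differed among chromosomes. Chromosome 5 held 39 and chromosome 9 held 29, while chromosome 1, which had the most H3K79Hcy peaks (1334), held 12. On the 7 nuclear chromosomes with under 60 H3K79Hcy peaks, 29 of 203 were of very high fold (14.3%, interval 10.1 to 19.8%). On the 13 others it was 171 of 7182 (2.38%, interval 2.05 to 2.76%). On chromosome 18 there were 4 among 9 peaks and on the X chromosome 5 among 17. The limit of 60 peaks was set after the counts had been seen.

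**Figure D3:**
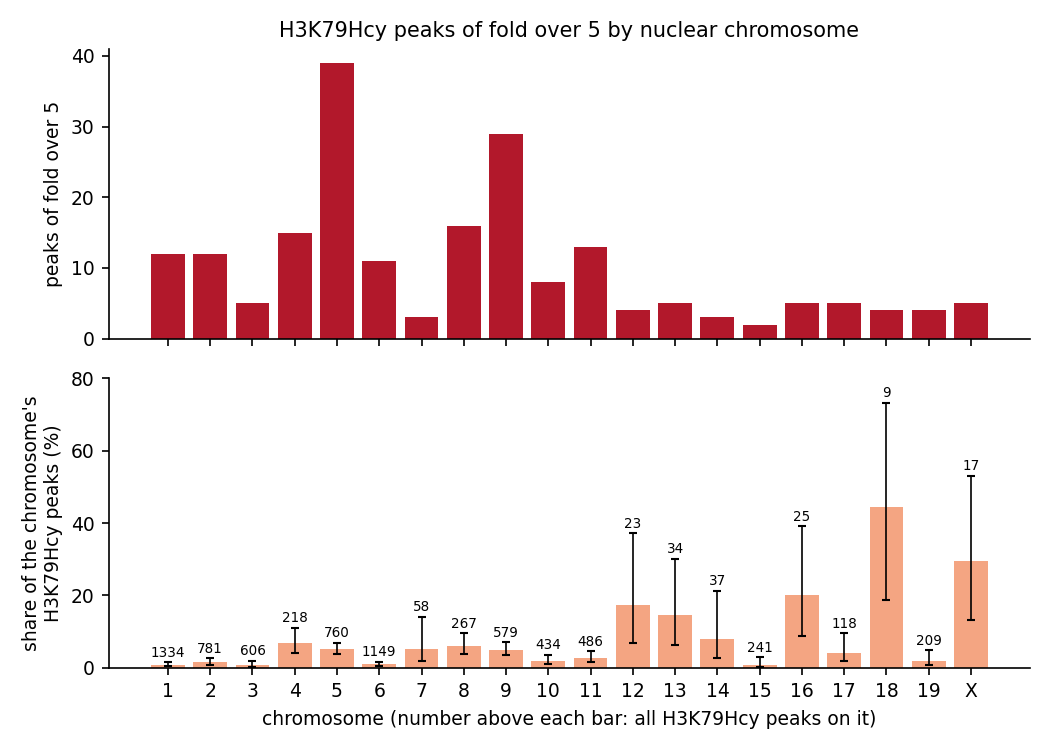
Number of H3K79Hcy peaks of fold over 5 on each nuclear chromosome (upper panel) and their share of the H3K79Hcy peaks of that chromosome in percent (lower panel), with 95% Wilson intervals as error bars and the number of all H3K79Hcy peaks above each bar. Chromosomes 5 and 9 hold the most (39 and 29), and the share is largest on chromosome 18, where 4 of 9 peaks lie over 5-fold.

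Protein-coding genes lay under a minority of these peaks. Of the 202, 72 overlapped the body of one (35.6%, interval 29.4 to 42.5%), and the share over all H3K79Hcy peaks was 41.4%. Exons were overlapped by 40 (19.8%, interval 14.9 to 25.8%), against 12.7% of the remaining peaks. Many of these exon overlaps lay in the chromosome 9 cluster, where 18 peaks overlapped 11 predicted genes. The exon share without this cluster was not calculated, so no excess of exons outside the cluster can be read from these values. Introns alone were overlapped by 32 (15.8%), against 28.4% of all H3K79Hcy peaks. In total 67 protein-coding genes were overlapped by a peak of very high fold, of 1747 overlapped by any H3K79Hcy peak. Predicted genes of the Gm series gave 18 of these 67, of 61 with any H3K79Hcy peak, and the Speer family gave 3 of 4. The olfactory receptors (Olfr), zinc finger proteins (Zfp), vomeronasal receptors (Vmn2r), UDP-glucuronosyltransferases (Ugt) and killer cell lectin-like receptors (Klr) had 11, 14, 6, 9 and 8 genes with an H3K79Hcy peak, and 0 with one of very high fold. At the share over all genes, 67 of 1747, counts this small cannot set these families apart. Pairs of such peaks lay in exons of Emp2, a tetraspan membrane protein gene, and in introns of Mid1, which encodes a microtubule-bound ubiquitin ligase. Gm20388 also had 2, but this gene model spans 4435 kb. The single peak chr17:39979801-39985800 overlapped only the pseudogene AY036118, held 939 reads at 19.7-fold and had a GC content of 64.0%, against a median of 41.1% over the 202. Its values were 24.9-fold for KHcy and 38.3-fold for H3K4me3.

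Most peaks of very high fold were also peaks of both other antibodies. KHcy peaks overlapped 147 of the 202 (72.8%, interval 66.3 to 78.4%), against 13.9% over all H3K79Hcy peaks. H3K4me3 peaks overlapped 159 (78.7%, interval 72.6 to 83.8%), against 15.4%. Both overlapped 135 (66.8%) and neither overlapped 31 (15.3%), while 79.9% of the remaining H3K79Hcy peaks were overlapped by neither. Of the 47 peaks over 10-fold, 45 were overlapped by both.

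The read densities of the 3 antibodies at these peaks were of similar size. The median was 11.6 reads per 200 bp for H3K79Hcy over all 202, 10 for KHcy over the 147 and 11.7 for H3K4me3 over the 159. As fold, KHcy had a median of 6.73 (quartiles 4.85 to 11.8) and H3K4me3 of 8.45 (quartiles 6.24 to 15.4). At the remaining H3K79Hcy peaks that were overlapped, these medians were 2.48 for KHcy and 2.98 for H3K4me3. KHcy exceeded 5-fold at 105 of the 202 (52.0%, against 1.62% of all H3K79Hcy peaks) and H3K4me3 at 140 (69.3%, against 3.40%). The KHcy fold was a median of 0.925 times the H3K79Hcy fold (quartiles 0.733 to 1.03), and the H3K4me3 fold 1.20 times (quartiles 0.875 to 1.51). Over all overlapped H3K79Hcy peaks these medians were similar, 0.876 for KHcy (n = 1025) and 1.08 for H3K4me3 (n = 1138). Similar folds are thus not particular to the peaks of very high fold. Across peaks, the log2 folds of H3K79Hcy and KHcy had a Pearson r of 0.872 and a Spearman rho of 0.763 (n = 147), and those of H3K79Hcy and H3K4me3 0.804 and 0.634 (n = 159). Neighbouring peaks share sequence and libraries, and some share 1 overlapping peak, so these peaks are not independent. The correlations cover only peaks chosen by H3K79Hcy fold and overlapped by a peak of the other list. No correlation over all overlapped H3K79Hcy peaks stands beside them, so they are a description of this part only. Of the 135 peaks overlapped by both, the fold was largest for H3K4me3 in 89, for H3K79Hcy in 38 and for KHcy in 8. No such split over all 546 H3K79Hcy peaks overlapped by both stands beside these counts, so they do not rank the antibodies. Peaks were also chosen by the H3K79Hcy fold alone. Among the 135, all 3 folds exceeded 10 in 35 and 20 in 11. The overlapping peaks of the other lists were wider, with a median of 1200 bp for each against 600 bp, and their density is an average over that width.

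**Figure D4:**
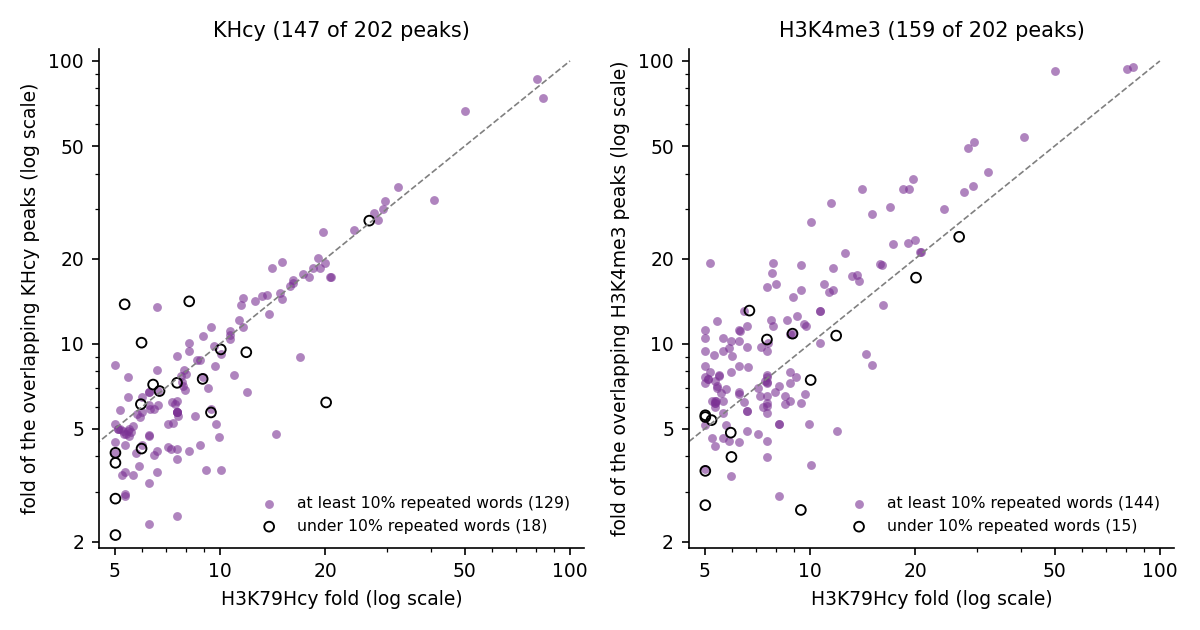
Fold of the overlapping KHcy peaks (left) and H3K4me3 peaks (right) against the H3K79Hcy fold of the peaks of very high fold, on log scales, with the dashed line at equal fold. Filled points are peaks with at least 10% repeated words and open circles those with less, and most peaks over 10-fold lie close to the line for KHcy and above it for H3K4me3.

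In reverse, the strongest KHcy peaks lay mostly at the same places. Of the 130 KHcy peaks over 5-fold, 104 (80%, interval 72.3 to 86.0%) overlapped an H3K79Hcy peak of very high fold, against 1.97% of all KHcy peaks. For H3K4me3 it was 128 of 269 (47.6%, interval 41.7 to 53.5%), against 0.765% of all its peaks. Outside the H3K79Hcy list, the largest fold was 17.8 for KHcy, at chr17:4626201-4626600, and 15.6 for H3K4me3, at chr10:43958401-43958800.

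Overlap was least frequent where little sequence was repeated, and those peaks also had the lowest median of reads. KHcy peaks overlapped 20.7% of the 29 peaks of very high fold with under 1% repeated words, 66.7% of 18 with 1 to 10%, 87.1% of 70 with 10 to 50%, and 80% of 85 with at least 50%. For H3K4me3 the shares were 10.3%, 66.7%, 90.0% and 95.3%. Among the other H3K79Hcy peaks the same classes gave 9.01%, 10.8%, 21.4% and 54.0% for KHcy and 8.02%, 12.5%, 28.2% and 77.3% for H3K4me3. In the classes from 1% upward the interval of the peaks of very high fold lay above that of the others for both antibodies. Under 1% the intervals for H3K4me3 overlapped, 3.58 to 26.4% against 7.20 to 8.92%, and those for KHcy, 9.85 to 38.4% against 8.15 to 9.97%, overlapped as well. Many of these peaks lie in the same clusters and are not independent, so the intervals describe counting error and are no test of a difference. In the peaks of very high fold the median was 16 reads under 1%, then 28.5, 53 and 27 in the classes above. Among those with at least 30 reads, KHcy peaks overlapped 100% and H3K4me3 peaks 95.7%. Repeated sequence and read count were not separated here, and whether either bears on the overlap was not tested.

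**Figure D5:**
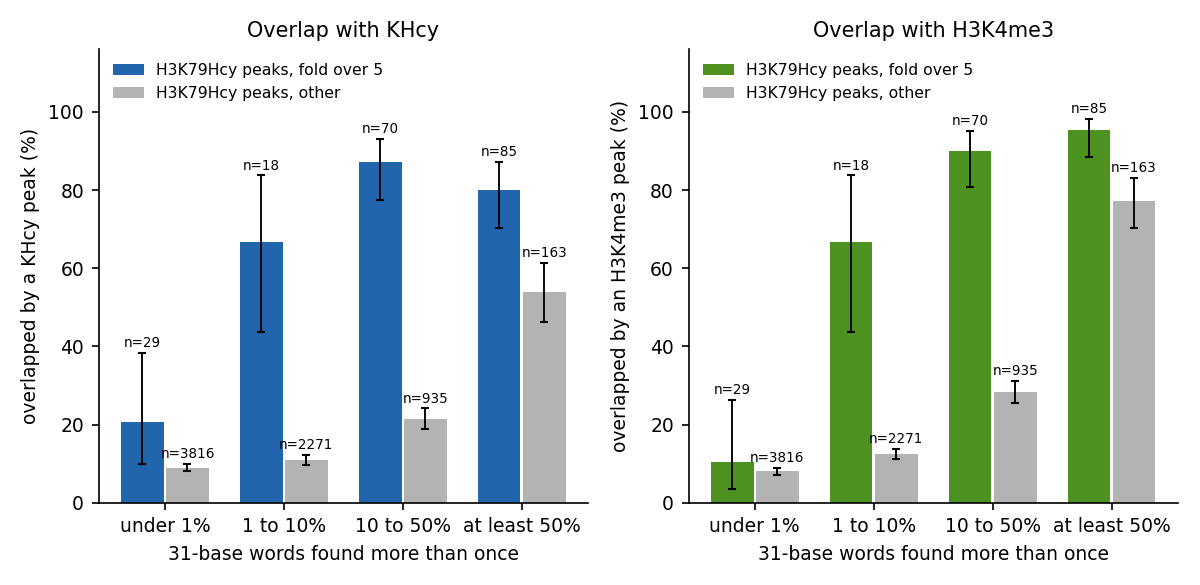
Percentage of H3K79Hcy peaks overlapped by a KHcy peak (left) or an H3K4me3 peak (right), by the share of their 31-base words found in more than 1 copy, for peaks of fold over 5 (coloured) and other peaks (grey). Error bars are 95% Wilson intervals and n is the number of peaks, and the share in peaks with at least 50% repeated words reaches 80% for KHcy and 95.3% for H3K4me3.

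The folds of the antibodies differed widely at a few peaks, listed here after their values had been seen. KHcy was under 0.5 times the H3K79Hcy fold at 9 peaks and over 2 times at 2. In all 9 the KHcy peak was wider than the H3K79Hcy peak, so its fold is an average over more sequence. At chr9:24346401-24346800 H3K79Hcy was 20.1-fold with 64 reads, KHcy 6.21-fold and H3K4me3 17.1-fold, but the KHcy peak was 1800 bp wide against 400 bp. At chr3:141854601-141855000 the values were 14.4-, 4.81- and 9.23-fold. The opposite was seen in Emp2, where chr16:10284401-10284800 had 8.17-fold for H3K79Hcy and 14.1-fold for KHcy, and chr16:10285401-10285800 had 5.34-fold and 13.8-fold. Neither Emp2 peak was overlapped by an H3K4me3 peak. H3K4me3 was under 0.5 times the H3K79Hcy fold at 4 peaks, and in all 4 the H3K4me3 peak was the wider one. The smallest ratio was 0.274, at chr6:144393201-144393400 in an intron of the transcription factor gene Sox5, with 2.59-fold against 9.42-fold. There the H3K4me3 peak was 1400 bp wide against 200 bp. H3K4me3 was over 2 times the H3K79Hcy fold at 13 peaks. Among these were chr19:45724001-45724800 in Fbxw4, an F-box protein gene, at 31.5-fold against 11.5-fold, and chr2:122506801-122508200 in Slc30a4, a zinc transporter gene, at 26.9-fold against 10.1-fold.

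Few peaks combined little repeated sequence with all 3 antibodies. There were 13 peaks with under 10% repeated words and overlap by both KHcy and H3K4me3. After the Cdk5rap2 and chr9:24346401 peaks, the largest was chr1:26742801-26745400, over an exon of 4931408C20Rik, with 246 reads at 11.9-fold, 9.34-fold for KHcy and 10.7-fold for H3K4me3. Close to the far end of chromosome 9 a group of 3 peaks included 2 with no repeated word. Of these, chr9:123841001-123842000 had 71 reads at 8.92-fold, with 7.51-fold for KHcy and 10.9-fold for H3K4me3, and chr9:123842601-123845200 had 139 reads at 6.72-fold, with 6.81-fold and 13.1-fold. All 3 lay within 50 kb of an assembly gap. A further pair of peaks stood at and near Itln1, an intelectin gene. Of this pair, chr1:173455001-173460800 overlapped an exon of Itln1 and had 232 reads at 5.03-fold. The other, chr1:173470001-173474800, lay outside protein-coding genes and had 227 reads at 5.94-fold.

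The 31 peaks that neither other antibody overlapped held few reads. Their counts ran from 12 to 24, 24 of them were 400 bp long, and 22 held no repeated word. Their largest fold was 8.17, with 13 reads in 1 window at chr1:126877401-126877600, and its interval was 4.35 to 13.96. The next 5 were tied at 7.54-fold with 12 reads in 1 window each. Among these were chr2:15767401-15767600 and chr2:94540001-94540200, both outside protein-coding genes. The interval of the fold reached below 5 in each of these 6 peaks.

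Simple repeats were rare among the 202. The telomere repeat TTAGGG, 4 times in a row on either strand, was in 2 peaks (0.990%), chr2:57482001-57482200 and chr17:63086801-63087000, against 5 of all H3K79Hcy peaks (0.0677%). CA in 12 repeats was in 9 peaks (4.46%, against 5.997% of all), GA in 12 repeats in 3 (1.49%, against 1.98%) and GAA in 8 repeats in 1 (0.495%, against 0.149%). Neither of the peaks with telomere repeats lay within 5 Mb of a chromosome end.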

How the data were processed

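Peak lists from 3 ChIP-seq libraries of NE4C cells, 1 per antibody, were used. Per the methods, reads were aligned to mm9 with Bowtie 2 and peaks called with MACS, version 1.4.2 in the submitters' processing notes, whereas a figure legend names SICER. For each peak the authors deposited its position, its length and its raw read count, without scaling by depth. A deposited score follows, which in 1-window peaks equals minus the natural log of the Poisson probability of the count, given 1 background value for the whole library. Control columns hold a dash.

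The background per 200 bp window was solved from these scores in each library. Fold was the read count over this background for the same length. Where several peaks of another list overlapped a peak by at least 1 bp, their reads and lengths were summed. Words of 31 and 21 bases were counted in the whole NCBIM37 genome, the same build as mm9, on both strands. No peak ended past a chromosome end. Genes were taken from GENCODE M1.

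The peaks described and all lists were chosen with earlier results of these data known. Peaks named by rule were the 10 of largest fold, the 3 on either side of the limit, the mitochondrial ones, the largest of each of the 3 largest clusters and the 3 of largest fold without overlap. Where several were tied for the last of these, those listed first by position were taken. Genes named by rule were those with at least 2 such peaks or under the 20 of largest fold. Other peaks and genes were named after their values had been seen. Shares have 95% Wilson intervals and read counts exact Poisson intervals. Sequencing reads are not independent molecules, so both cover counting error only. Without replicates no test was made. Fold limits of 4 and 8, a minimum of 30 reads, a stricter score, 1 peak per cluster, other distances, word lengths, overlaps and gene sets were tried as alternatives. Functions were checked on simulated data. Input, IgG and treated cells are not analysed here. The tools were Python 3.11.15, numpy 2.4.6, pandas 2.3.3, scipy 1.17.1, numba 0.67.0 and matplotlib 3.10.9.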

Additional observations from a re-analysis of the deposited data

How the results depend on the processing

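Of 56 alternative values, 25 stayed within the interval, quartiles or 1.5 times of the reported value and 31 moved. The number of peaks, 202, was 88 when the lower Poisson bound had to exceed 5 and 124 when peaks within 3000 bp were merged. With a fold limit of 4 the shares were 55.7% rich in repeated words, 13.5% near a chromosome end, 35.5% within 10 kb of another, 51.7% overlapped by KHcy and 57.3% by H3K4me3. With a limit of 8 they were 89.2%, 41.9% near an end, 90.5% for KHcy, 93.2% for H3K4me3 and 56.8% over protein-coding genes, and the median KHcy fold was 12.8. With at least 30 reads they were 87.2% rich in repeated words, 31.9% near an end, 100% for KHcy, 95.7% for H3K4me3 and 42.6% over genes. With the stricter score they were 86% rich in repeated words, 28% near an end, 84.7% for KHcy and 90% for H3K4me3. With 1 peak per cluster 66.9% were rich in repeated words, 12.3% were near an end and 70% were overlapped by H3K4me3. Words of 21 bases gave 85.1% and a limit of 50% of words gave 42.1%. Within 1 Mb of an end lay 4.95% and within 10 Mb 28.7%, where all H3K79Hcy peaks gave 1.73% and 15.3%. The distance of 1 Mb leaves out the centromere side, since nuclear chromosomes have no assembled sequence there. Of the 10 peaks within 1 Mb, 8 lay at a far end and the rest on the mitochondrial genome. Gaps of at most 3 kb gave 33.7%, and all annotated genes 51.0%. The cause of these shifts was not tested. No paired analysis was possible because each antibody has 1 library. The lists give neither a control nor the total reads of a library, so folds of different antibodies rest on separate backgrounds, and reads that fit several places cannot be told apart from the lists. With under 20 reads in 72 of the peaks, many folds near 5 are uncertain by counting error alone.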
